A study of Mus musculus with 8 samples.

Results

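This section describes microglia of the lateral geniculate nucleus (LGN), a part of the thalamus to which the retina projects, 3 days after crush of both optic nerves, set against microglia of uninjured mice. All mice were wild-type adult male C57BL/6J animals of 2 to 3 months, and no other treatment was named for either group. Uninjured mice gave 2 libraries and mice killed 3 days after the crush gave 3, of 8 libraries in all; the other 3 libraries came from mice killed 1 day after the crush. Cells were pulled out on magnetic beads by CD11b, an integrin chain whose gene is Itgam, and their RNA was linearly amplified before sequencing. Every gene that passed a filter on low counts was described, which was 17390 of 26062 gene IDs. Genes of cell division, gathered in a list of 422 symbols of which 385 were tested, were set apart so that the other 17005 could be read on their own. No label tells if a library is 1 mouse or a pool, and the spread behind each p-value is that between libraries and could be technical.

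Microglia are the resident macrophages of the brain. They sense the tissue through receptors for nucleotides, chemokines, complement and microbial or damage ligands, and take up debris and synaptic material into lysosomes. In an undisturbed brain they express a set of genes, kept up in part by TGF-beta and the CSF1 receptor, that is often called homeostatic, with P2ry12 and Tmem119 among its best known members. Near amyloid, demyelination or dying neurons they take on a state named disease-associated, with genes of lipid uptake, lysosomal proteases and secreted matrix proteins such as Lpl, Cst7 and Spp1. Crush of the optic nerve cuts retinal axons, whose terminals in the LGN then degenerate, while the LGN itself is not touched.

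Library totals were 17533499 and 17994861 counts in uninjured mice and 13756487 to 14993580 at 3 days. The share of mitochondrially encoded counts was 22.5% and 21.3% in uninjured mice and 22.8%, 28.9% and 30.3% at 3 days. Correlations of log2 levels were 0.939 between the uninjured libraries and 0.925 to 0.931 among those of 3 days. Microglial markers were abundant in all 5 libraries: Csf1r, the receptor microglia need to survive, lay between 2801 and 4485 CPM (counts per TMM-scaled library size, the unit of all levels here), and Cx3cr1, the fractalkine receptor, between 1307 and 1962. Cells were studied in bulk, so fewer cells of a type and less RNA per cell cannot be told apart.

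At 3 days, 433 genes were higher than in uninjured microglia (2.49% of the genes tested) and 171 were lower (0.983%), at a Benjamini-Hochberg adjusted p under 0.05 in edgeR's quasi-likelihood test, which is what "called" means here. Cell division genes made up 147 of the rises and 0 of the falls. Outside that list, 286 genes rose (1.68% of those tested) and 171 fell (1.01%). The rises were larger: their median was 1.29 on the log2 scale against −0.87 for the falls, and 48 genes outside the list rose by 2 or more while 9 fell by as much. The median of all genes tested was −0.0016. When libraries were scaled by their totals alone, that median lay at −0.15 and 317 genes rose against 244 that fell, so the share of rises among the calls went from 71.7% to 56.5%.

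Those counts leaned on single libraries. Outside the cell division list, 44 genes rose and 11 fell without uninjured replicate 1, 117 and 60 without uninjured replicate 2, and 131 and 47 without day 3 replicate 1. Those counts were 183 and 168 when day 3 replicate 2 was left out and 73 and 28 when day 3 replicate 3 was. Leaving out day 1 replicate 2, which is in neither group but adds to the shared estimate of spread, gave 378 falls. Of 185 genes named by a rule and called, 38 were called in each fit run, and the accounts below lead with those: Mmp12, Lpl, Spp1, Cst7, Il12b, Acod1, Slc43a3, Psat1, Sdf2l1, Ccl5, Ccl6, Cxcl10, Il1b, Cd14, Cd180, Tlr2, Olr1, Cybb, Ctsb, Cd68, Gusb, Capg, Cfl1, Pkm, Gapdh, Calr, Rpsa, Ank, Tnfaip2, Tubb5, Mki67, Top2a, Cenpe and Anln among the rises, and P2ry12, Lpcat2, Klf4 and Dnaja1 among the falls. The other called genes lost their call in at least 1 fit: of the 185, 144 were not called without uninjured replicate 1, 92 without uninjured replicate 2 and 118 without day 3 replicate 3.

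**Figure D1:**
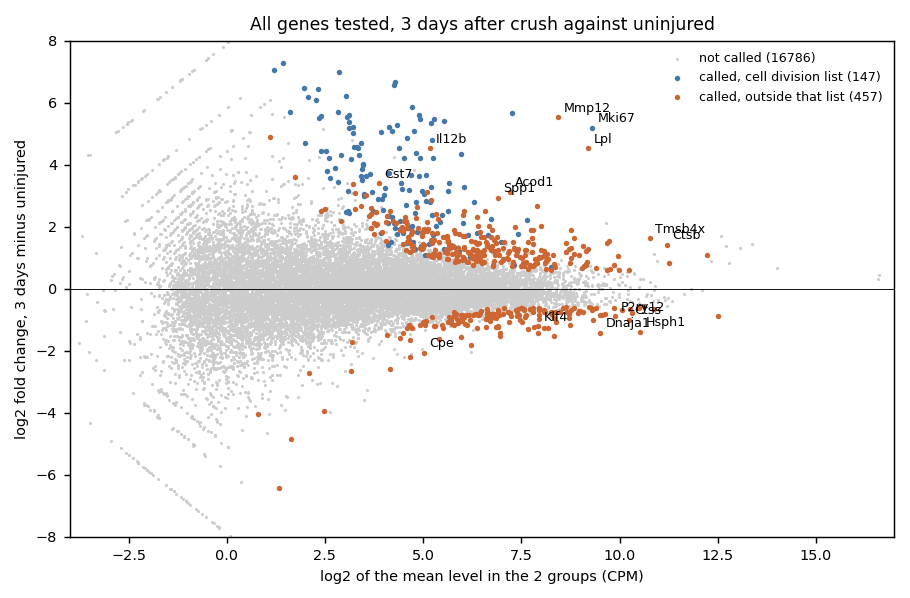
Each point is 1 gene: the x axis gives the log2 mean level of uninjured and 3 day libraries in CPM, the y axis the log2 fold change (3 days minus uninjured), and colours mark the 147 called genes of the cell division list and the 457 called genes outside it; 8 genes with no call lie outside the plotted range. Called rises outside the list reach from Mmp12 and Lpl down to abundant genes such as Tmsb4x, while called falls lie mostly between −0.5 and −2.

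The largest rise among well-measured genes outside cell division was that of Mmp12 (ENSMUSG00000049723), a macrophage elastase that cuts elastin and other matrix proteins. Its level was 14.4 and 14.9 CPM in the uninjured libraries and 556, 691 and 788 CPM at 3 days. All 3 injured libraries lay far above both uninjured ones, a 46.2-fold difference (log2 fold change 5.53, SE 0.45, edgeR adjusted p 6.5e-05). Lpl (ENSMUSG00000015568), the lipase that releases fatty acids from lipoproteins, went from 52.2 and 44.6 CPM to 892, 1202 and 1275 CPM, or 23.2-fold. Cst7, the cysteine protease inhibitor cystatin F of endosomes and lysosomes, stood at 2.94 and 2.11 CPM and then at 23.2, 26.8 and 30.1 CPM. Its log2 fold change was 3.40 (SE 0.51, edgeR adjusted p 0.0019). The rule that names the largest rises, Mmp12 and Cst7 among them, admits only genes without overlap between the groups. Spp1, the secreted matrix protein osteopontin, stood at 29.8 and 25.8 CPM against 180, 173 and 284 CPM. Slc43a3, a purine nucleobase transporter, rose from 7.37 and 6.85 CPM to 49.6, 59.1 and 76.8 CPM (log2 fold change 3.12).

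Lpl, Cst7 and Spp1 are core members of the disease-associated state. On a list of 39 tested genes of that state, 15 rose (38.5%, against 1.68% of genes outside cell division) and 0 fell, with a list median of 0.83. Leaving out uninjured replicate 1 gave 9 rises. Further members were Capg, an actin-capping protein, at 12.9 and 15.9 CPM and then 75.7, 57.9 and 70.4 CPM, and Cd63, Cd9 and Cd52, surface proteins of myeloid cells with log2 rises of 1.09, 1.17 and 2.17. Igf1, a growth factor that microglia secrete, was 39.7 and 37.1 CPM in uninjured mice and 96.8, 159 and 152 CPM at 3 days (log2 fold change 1.82, SE 0.36, edgeR adjusted p 0.011). Its call was lost without either uninjured library, and without day 3 replicate 2 or 3. The list was incomplete in its movement: Trem2, the lipid receptor that licenses the state in disease models, was 143 and 252 CPM against 289, 303 and 337 CPM and was not called (log2 fold change 0.65, edgeR adjusted p 0.14). Apoe, the lipid carrier, was level at 229 and 287 CPM against 294, 229 and 280 CPM, with overlapping groups. Clec7a (0.21), Axl (0.24) and Itgax (0.79) were not called either, nor was Gpnmb (2.10), which lay at 4.17 and 2.94 CPM and then at 10.2, 14.1 and 21.5 CPM. Itgax and Gpnmb passed in DESeq2 and in the fit to the uninjured and 3 day libraries alone.

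**Figure D2:**
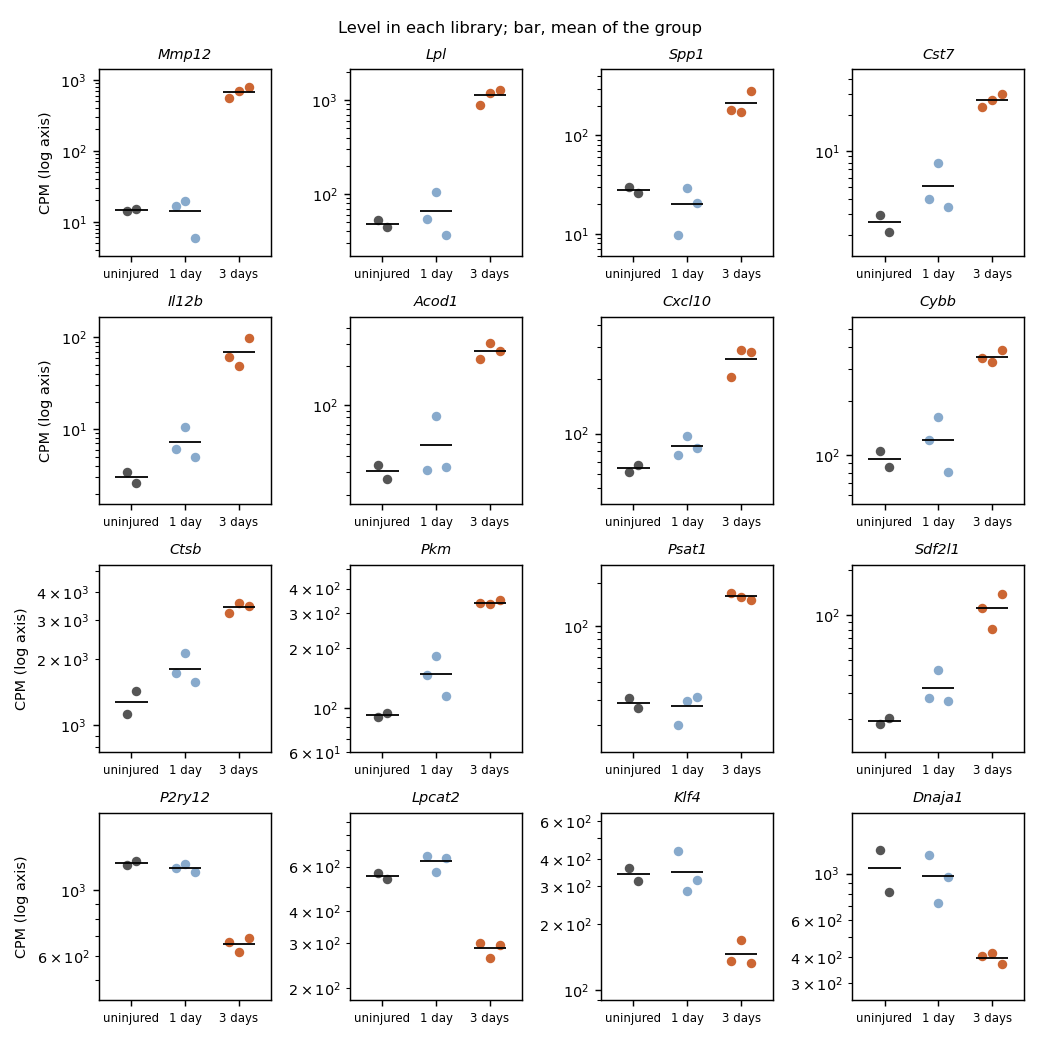
Level of 16 genes in each library (CPM, log axis) in uninjured mice (grey), 1 day (blue) and 3 days (orange) after crush, with a bar at each group's mean. All 16 were taken from the genes called in each fit run, a choice that favours separate groups. The 3 day libraries lie apart from both uninjured libraries for each gene shown, above them in 12 panels and below them for P2ry12, Lpcat2, Klf4 and Dnaja1.

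Lysosomes digest what phagocytes take up, and their acid hydrolases, membrane proteins and proton pump are made together. On the lysosome list, 10 of 66 tested genes rose (15.2%, beside 2.49% of all genes tested) and 1 fell, with a median of 0.23. Ctsb, the cysteine protease cathepsin B, was among the most abundant, at 1124 and 1435 CPM in uninjured mice and 3211, 3570 and 3474 CPM at 3 days (2.67-fold, log2 fold change 1.42, SE 0.17, edgeR adjusted p 0.00027). Ctsd, the aspartic protease cathepsin D, was 2491 and 3579 CPM and then 5688, 5889 and 7888 CPM. Both proteases lay higher in each injured library than in any uninjured one. Gusb, the hydrolase beta-glucuronidase, moved within narrow groups, from 154 and 148 CPM to 342, 375 and 361 CPM, and Cd68, a glycoprotein of macrophage late endosomes, from 301 and 376 CPM to 794, 763 and 816 CPM. Cathepsin Z (Ctsz), the tetraspanin Cd63, the pump subunit Atp6ap1, progranulin (Grn) and the heparan sulphate hydrolase Naglu were among the other rises, by 0.63 to 1.18 on the log2 scale. Fewer lysosomal genes were called with a library left out: 3 without uninjured replicate 1, 6 without uninjured replicate 2, and 5, 6 and 6 when day 3 replicates 1, 2 and 3 were left out in turn.

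Cathepsin S went the other way. Ctss, the protease that trims the invariant chain of MHC class II, stood at 1621 and 1610 CPM in uninjured mice and at 720, 1122 and 578 CPM at 3 days (log2 fold change −1.001, SE 0.21, edgeR adjusted p 0.017). The groups did not overlap, but the call was lost without either uninjured library and without day 3 replicate 1 or 3. Lysosomal genes are known targets of TFEB and related factors, which bind E-box letters CACGTG near start sites. RefSeq promoters (GRCm38.p6, 250 bases before to 50 after the start) were matched for 8 of the 10 risers, and the letters, which read the same on both strands, stood in those of Ctsd and Naglu, against 8.09% of 27025 genes with a promoter in the table. The letters also stood in 11.3% of the 230 rises outside cell division with a promoter (80.4% of the rises) and in 21.3% of the 122 falls with one (71.3% of the falls). The Ctsd promoter is shown, with the matches in capitals, because it is the most abundant of the genes that rose and holds 2 of them.
Ctsd promoter, chr7:142387778-142388077, minus strand: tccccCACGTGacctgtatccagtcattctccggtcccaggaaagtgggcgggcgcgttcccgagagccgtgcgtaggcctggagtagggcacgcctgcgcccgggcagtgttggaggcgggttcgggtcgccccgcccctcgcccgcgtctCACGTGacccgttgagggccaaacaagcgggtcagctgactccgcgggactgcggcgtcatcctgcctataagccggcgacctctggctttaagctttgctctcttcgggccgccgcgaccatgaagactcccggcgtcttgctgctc

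Engulfment and sensing receptors changed in part. On a list of 46 tested genes of uptake and bridging, 4 rose (Cd14, Olr1, Lrp1 and Rac1) and 1 fell (Cd300a). The rises were 8.70% of the list, beside 2.49% of all genes tested. The list median of 0.10 turned negative when libraries were scaled by totals alone. Cd14, the co-receptor for lipopolysaccharide, was 207 and 244 CPM and then 657, 641 and 793 CPM (log2 fold change 1.63, SE 0.22, edgeR adjusted p 0.00095). Olr1, the scavenger receptor for oxidised low-density lipoprotein, was 28.1 and 33.5 CPM against 81.4, 114 and 102 CPM. In both cases the lowest injured library was well over the highest uninjured one. Mertk, the receptor for phosphatidylserine-bound Gas6, was not called, at 537 and 558 CPM against 438, 339 and 367 CPM (log2 fold change −0.52, edgeR adjusted p 0.079). The calls of Lrp1 and Rac1 lay near the threshold (edgeR adjusted p 0.048 and 0.049), and were lost without any 3 day library or without uninjured replicate 1.

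Of the complement list, 1 of 21 tested genes rose, C5ar1, the receptor for the C5a fragment (log2 fold change 0.73, not called without any one of the 5 libraries or under scaling by totals), and 1 fell, Itgam; a single call each way, beside 1.68% and 1.01% of genes outside cell division, is not read as a result about the list. C1qb, a chain of the recognition protein C1q, was 766 and 1422 CPM against 1615, 1398 and 1574 CPM, so that an uninjured library lay within the injured range. C1qa (log2 fold change 0.62), C1qc (0.47) and C3 (0.80) were likewise not called. Fcer1g, the shared signalling chain of Fc receptors, was the 1 call of 22 on the Fc receptor list (log2 fold change 1.47), likewise no result about the list, and it was lost without uninjured replicate 1 or day 3 replicate 3. Cybb, the catalytic subunit of the phagocyte NADPH oxidase, went from 106 and 85.7 CPM to 344, 328 and 384 CPM (3.68-fold, edgeR adjusted p 0.0007). With Rac1 it made 2 calls of 8 tested oxidase genes (25.0%, beside 2.49% of all genes tested).

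Itgam itself encodes the protein on which the cells were selected. In uninjured mice its RNA lay at 597 and 419 CPM. After 1 day the libraries held 1366, 1133 and 1347 CPM, and after 3 days 304, 294 and 297 CPM. The 3 day libraries were the lowest and the 1 day libraries the highest, with no overlap (3 days against uninjured: log2 fold change −0.77, SE 0.16, edgeR adjusted p 0.017). That fall was not called without uninjured replicate 1, or without day 3 replicate 1 or 3. In the GENCODE M21 annotation, 3450 of its 5024 exonic bases are shared with Gm49368 on the same strand, a predicted gene counted at no more than 6.31 CPM in any library. Whether reads over the shared bases were dropped is not given in the sources used here.

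Toll-like receptors sense microbial and damage ligands and feed into NF-kB. Of 26 tested genes of that group, 5 rose (19.2%, beside 2.49% of all genes tested) and 0 fell: Cd14, Cd180, Tlr2, Ly86 and Tlr1. Tlr2 stood at 308 and 339 CPM and then at 656, 719 and 679 CPM, and Cd180, a receptor related to Tlr4 that pairs with the Ly86 product, at 626 and 668 CPM and then at 1238, 1267 and 1484 CPM. Both rose with tight groups (log2 fold changes 1.08 and 1.04, SE 0.16 and 0.14). Only 3 of the group were called without uninjured replicate 1 or day 3 replicate 3.

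Secreted inflammatory genes rose in part, and some of them from a very low level. Of 51 tested cytokines and NF-kB targets, 10 rose (19.6%, beside 2.49% of all genes tested) and 0 fell, with a median of 0.33. Il12b, the p40 chain shared by interleukins 12 and 23, was 3.42 and 2.58 CPM in uninjured mice and 60.9, 48.2 and 98.3 CPM at 3 days (23.02-fold, log2 fold change 4.52, SE 0.46, edgeR adjusted p 9.4e-05). Acod1, which is not on the list and makes the antibacterial and anti-inflammatory metabolite itaconate, was 34.1 and 26.7 CPM against 228, 305 and 262 CPM. Il1b, the pyrogenic cytokine interleukin 1 beta, was 117 and 122 CPM against 325, 277 and 369 CPM (log2 fold change 1.44), and Tnf 216 and 378 CPM against 744, 708 and 873 CPM (1.38). Il1rn, the antagonist of the interleukin 1 receptor, also rose, by 1.5. Without uninjured replicate 1, 3 members of the list were called, and without day 3 replicate 3, 5.

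The same list was more widely raised at 1 day. At that time 15 of its members were called higher than in uninjured mice, with a median of 0.85, and both times are read against the same uninjured libraries. The share of all genes called at 1 day is not given here, so the 15 have no background beside them. Tested directly, 17 members were lower at 3 days than at 1 day and 1 was higher, Il12b, beside 5.75% lower and 5.24% higher of all genes tested between those times. Il1b showed log2 changes from uninjured of 1.79 at 1 day and 1.44 at 3 days, and their difference was not called (−0.35, edgeR adjusted p 0.24). For Il12b the values were 1.27 and 4.52, and the difference was called (3.26, edgeR adjusted p 9e-05).

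Chemokines attract further leukocytes. Of 24 tested ligands, 4 rose (16.7%, beside 2.49% of all genes tested) and 0 fell, with a median of 0.52. Cxcl10, an interferon-inducible attractant of T cells, was 61.8 and 67.5 CPM and then 205, 290 and 283 CPM (log2 fold change 2.00, SE 0.21, edgeR adjusted p 0.0001). Ccl5 was 22.1 and 19.7 CPM against 110, 98.6 and 116 CPM, and Ccl6 25.5 and 29.7 CPM against 120, 119 and 170 CPM. Each of them was higher in all injured libraries, and Ccl9 rose by 1.21. Among receptors for attractants, Gpr84, which binds medium-chain fatty acids, was 393 and 478 CPM and then 1070, 1153 and 1595 CPM (log2 fold change 1.55), a rise not called without uninjured replicate 1. The rise of Cxcl10 was not shared by interferon-stimulated genes at large. Of 48 tested, 2 rose (4.17%, beside 2.49% of all genes tested), Cxcl10 and the growth regulator Slfn2, and the median was −0.24.

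**Figure D3:**
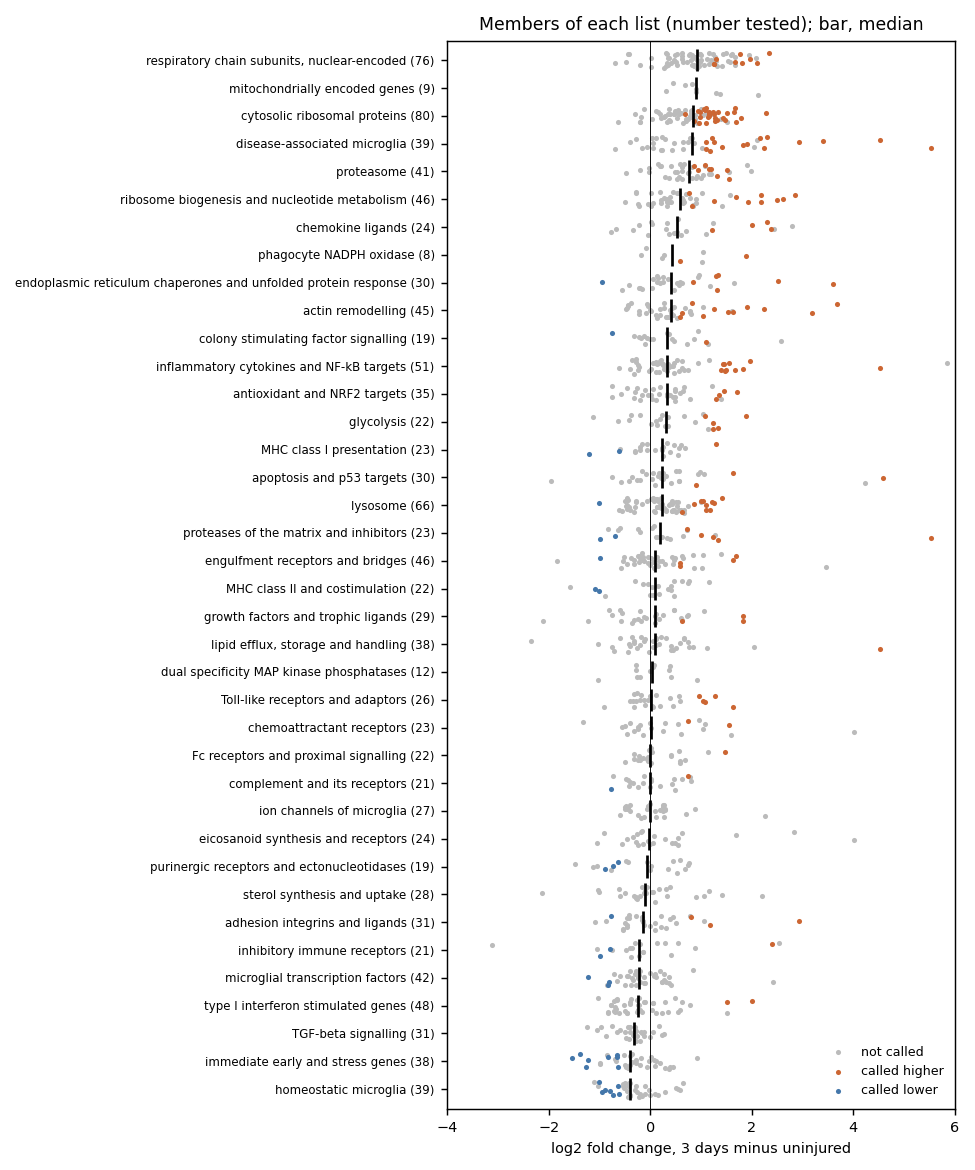
Each row is 1 of 38 lists, with the number of tested members in brackets; points are the members' log2 fold changes (3 days minus uninjured), orange for called higher, blue for called lower and grey for not called, and the bar is the list's median. Medians run from 0.92 for the nuclear-encoded respiratory chain to −0.41 for homeostatic microglia.

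Many lists had calls in 1 direction only in edgeR. Before adjustment, the number of falls with a p under 0.05 was 0 for the disease-associated list, 4 for cytokines and NF-kB targets, 1 each for chemokines and Toll-like receptors, 2 for glycolysis and 3 for actin remodelling. It was 0 for ribosome biogenesis, ribosomal proteins, the respiratory chain and the proteasome. DESeq2 called 1 fall each among cytokines, chemokines, glycolysis and actin genes and 0 in the other 6 lists, and limma-voom called 1 among actin genes. On the falling side, unadjusted rises numbered 3 for the homeostatic list, 1 for transcription factors and 1 for immediate early genes. DESeq2 called 1, 1 and 0 of them and limma-voom 1, 0 and 0.

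Enzymes that make serine, one-carbon units and nucleotides rose beside the cell division genes. On a list of ribosome biogenesis and nucleotide metabolism, 10 of 46 tested genes rose and 0 fell, with a median of 0.59. The rises were 21.7% of the list, beside 2.49% of all genes tested. Psat1, which makes phosphoserine from a glycolytic intermediate, went from 31.0 and 26.2 CPM to 171, 160 and 153 CPM (5.63-fold, log2 fold change 2.49, SE 0.24, edgeR adjusted p 6.6e-05). Its partners in the route rose as well: Phgdh, the first enzyme of serine synthesis, from 5.56 and 7.88 CPM to 32.4, 29.3 and 30.0 CPM, and Shmt2, the mitochondrial enzyme that takes a carbon from serine, from 5.18 and 12.7 CPM to 52.0, 57.3 and 85.4 CPM. Mthfd2, the next mitochondrial step, rose by 2.17. Cad, the enzyme that starts pyrimidine synthesis, rose by 2.62, but unevenly, with 91.7 CPM in day 3 replicate 1 and 29.5 and 27.0 CPM in the others against 7.11 and 8.96 CPM. Paics of purine synthesis, the spermidine synthase Srm, the nuclear transport cofactor Ranbp1 and the nucleolar proteins Npm1 and Ncl were also called, by 0.76 to 1.92. Psat1 alone of the 10 was called without uninjured replicate 1, and 4 genes were called when uninjured replicate 2 was left out, 6 when day 3 replicate 1 was and 5 when day 3 replicate 3 was.

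Glycolysis turns glucose into pyruvate and lactate. Of 22 tested enzymes of the list, 5 rose (22.7%, beside 2.49% of all genes tested) and 0 fell, with a median of 0.32. The 5 were Pkm, Gapdh, Ldha, Eno1 and Aldoa. Pkm, pyruvate kinase, was 89.9 and 94.5 CPM and then 337, 333 and 350 CPM (log2 fold change 1.88, SE 0.20, edgeR adjusted p 0.00012), and no library lay near the other group. Gapdh was 85.3 and 95.5 CPM against 176, 258 and 246 CPM. The list had 2 calls without uninjured replicate 1, and 3 without uninjured replicate 2 or without any of the 3 day libraries. No gene of 28 tested in sterol synthesis and uptake was called by edgeR (before adjustment, 3 rises and 2 falls had a p under 0.05), and DESeq2 called 1 higher and 2 lower. On the wider lipid list, Lpl was the 1 call of 38 (2.63%, beside 2.49% of all genes tested), no result about the list.

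Folding of secreted proteins takes place in the endoplasmic reticulum. Of 30 tested chaperones and genes of the unfolded protein response, 6 rose (20.0%, beside 2.49% of all genes tested) and 1 fell. Sdf2l1, a chaperone cofactor of the endoplasmic reticulum, was 18.7 and 20.3 CPM against 113, 81.2 and 140 CPM (5.69-fold, log2 fold change 2.51, SE 0.30, edgeR adjusted p 0.00037), and Calr, calreticulin, was 245 and 259 CPM against 609, 545 and 708 CPM. The disulphide isomerases P4hb, Pdia6 and Pdia4 rose by 0.84 to 1.33. Ddit3, the transcription factor CHOP of the stress arm of that response, fell from 81.6 and 88.4 CPM to 37.9, 47.9 and 46.7 CPM (log2 fold change −0.94, edgeR adjusted p 0.02), while Trib3, which CHOP is known to induce, was called higher at low levels, 0.641 and 0.361 CPM against 3.66, 4.02 and 10.8 CPM. The calls of Ddit3 and Trib3 were lost when either uninjured library was left out. The list had 2 called rises without uninjured replicate 1, uninjured replicate 2, day 3 replicate 1 or day 3 replicate 3.

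Actin remodelling moves processes and closes phagocytic cups. Of 45 tested genes, 11 rose (24.4%, beside 2.49% of all genes tested) and 0 fell, with a median of 0.40. Cfl1, the filament-severing protein cofilin, was 152 and 214 CPM and then 687, 576 and 787 CPM (log2 fold change 1.90, SE 0.25, edgeR adjusted p 0.00068). Tmsb4x, which holds actin monomers, went from 647 and 1049 CPM to 2416, 2680 and 2806 CPM, and Actb from 1555 and 2003 CPM to 3125, 2962 and 3373 CPM. Injured libraries were higher throughout, though the calls of Tmsb4x and Actb were lost without uninjured replicate 1 or day 3 replicate 3. The list held 3 calls without either of those libraries and 7 without day 3 replicate 1. Anln and Diaph3, counted among the 11 rises, also act in cytokinesis and belong to the cell division list as well. Among proteases of the matrix, Plau (urokinase), Mmp14 and Adam8 rose with Mmp12 and the inhibitor Serpine2, 5 of 23 tested, while Timp3 and Adamts1 fell. That was 21.7% higher and 8.70% lower, beside 2.49% and 0.983% of all genes tested. Without uninjured replicate 1, 1 of these proteases rose, and 2, 3 and 2 without day 3 replicates 1, 2 and 3.

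Ribosomal proteins, respiratory chain subunits and the proteasome had positive log2 fold changes for most of their members. Of 80 tested cytosolic ribosomal proteins, 29 rose (36.25%, beside 2.49% of all genes tested) and 0 fell, and 74 had a positive log2 fold change (median 0.84). Summed over the list, their level was 4190 and 5724 CPM in uninjured mice and 8507, 8574 and 8939 CPM at 3 days. Rpsa, of the small subunit, was at 43.3 and 69.9 CPM against 175, 180 and 183 CPM (log2 fold change 1.66, SE 0.22, edgeR adjusted p 0.00064). Of 76 nuclear-encoded respiratory chain subunits, 9 rose (11.8%, beside 2.49% of all genes tested) and 0 fell, and 71 were positive (median 0.92). Their summed level went from 1775 and 1693 CPM to 3241, 3013 and 3483 CPM. Cox6a1, a subunit of cytochrome c oxidase, was 19.7 and 23.7 CPM and then 62.8, 66.3 and 78.6 CPM. The proteasome followed with 8 of 41 tested genes called higher (19.5%, beside 2.49% of all genes tested), 0 lower, and a median of 0.77. Scaled by library totals, 15 ribosomal, 5 respiratory and 4 proteasome genes were called.

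Calls in those groups were fragile. Without uninjured replicate 1, 1 ribosomal, 1 respiratory and 0 proteasome genes were called by edgeR; without uninjured replicate 2 the counts were 13, 1 and 1. Without day 3 replicate 1 they were 7, 3 and 3, without day 3 replicate 2 they were 12, 4 and 4, and without day 3 replicate 3 they were 3, 2 and 1. They rose to 34, 18 and 10 without day 1 replicate 1 and to 37, 22 and 11 without day 1 replicate 2. The list medians kept their sign in each of those fits, at 0.64 or more for the ribosomal, 0.85 or more for the respiratory and 0.61 or more for the proteasome list. Ribosomal proteins have many processed copies in the genome, so the split of reads between genes and copies is uncertain; of 84 tested pseudogenes named for them, 4 rose and 0 fell, and their median log2 fold change was 1.29, above that of the genes.

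Ribosomal and respiratory genes are short, and among abundant genes the change at 3 days went with exonic length. Among genes of at least 10 CPM outside cell division, the median log2 fold change was 0.69 for 173 genes with under 1000 exonic bases, 0.41 from 1000 to under 2000, 0.16 from there to under 4000, −0.02 from there to under 8000 and −0.15 for 1982 genes of 8000 or more. In those classes, 13.9%, 9.14%, 4.36%, 2.01% and 1.82% of genes were called higher. The 11.8% called higher on the respiratory list lay between the shares of the 2 shortest classes. Left without ribosomal, respiratory, proteasome and mitochondrially encoded genes, the medians were 0.46, 0.30, 0.14, −0.02 and −0.15. The 2 shortest classes then had 11 of 132 and 37 of 531 genes called higher. Over all genes outside cell division, whatever their level, the medians of the same classes were −0.00042 (1842 genes), 0.10, 0.07, −0.03 and −0.16, so without the minimum of 10 CPM the shortest class had a median near 0. The ribosomal and respiratory lists had a median of 1776 and 1779 exonic bases, and within the class from 1000 to under 2000 their medians were 0.96 (30 genes) and 1.06 (25 genes). The proteasome list was longer, with a median of 2949 exonic bases, and its 11 genes from 4000 to under 8000 had a median of 0.74. Called rises outside cell division had a median of 3166 exonic bases, called falls 5763, and all tested 3738. The 2 uninjured libraries differed from each other in the same way, with median log2 ratios of −0.15 and 0.13 to their mean in the shortest class of genes of at least 10 CPM, against 0.62, 0.48 and 0.74 at 3 days. At 1 day that class stood at 0.02, 0.49 and 0.09, so day 1 replicate 2 lay within the 3 day range. Over the same classes the median log2 fold changes at 1 day were 0.31, 0.20, 0.18, 0.12 and 0.07. A trend with length was thus not particular to 3 days. The part of length in the rises of the ribosomal, respiratory and proteasome lists was not tested.

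**Figure D4:**
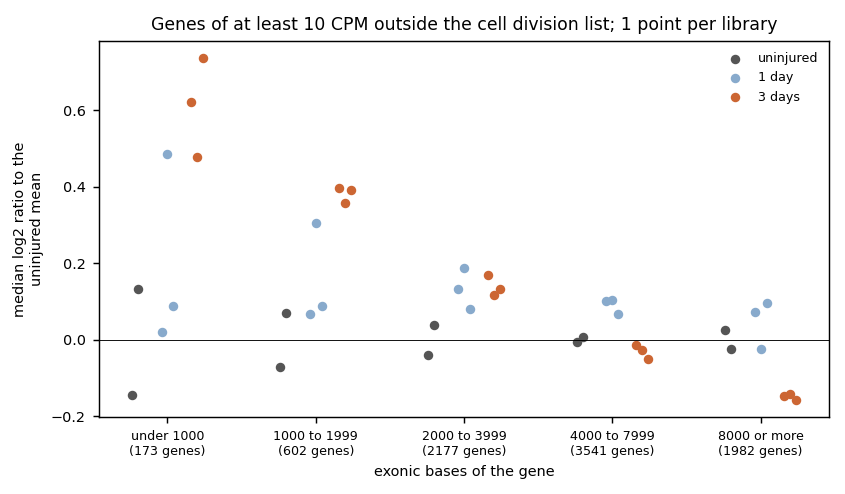
Median log2 ratio of each library to the uninjured mean (y axis) for genes of at least 10 CPM outside the cell division list, in 5 classes of exonic bases (x axis, number of genes in brackets); 1 point is 1 library. The 3 day points go from between 0.48 and 0.74 in the shortest class to between −0.16 and −0.14 in the longest. Day 1 replicate 2 goes from 0.49 to −0.03.

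Genes of the homeostatic state fell in part. Of 39 tested, 7 fell (17.9%, against 1.01% of genes outside cell division) and 0 rose, with a median of −0.41. P2ry12 (ENSMUSG00000036353), the ADP receptor that steers processes to damage, was 1211 and 1249 CPM in uninjured mice and 670, 619 and 692 CPM at 3 days (log2 fold change −0.90, SE 0.13, edgeR adjusted p 0.0014). Lpcat2, which makes platelet-activating factor and remodels phospholipids, was 567 and 538 CPM against 300, 262 and 295 CPM. Both groups were tight and did not touch. Entpd1, the ectoenzyme CD39 that removes extracellular ATP and ADP, went from 644 and 706 CPM to 444, 390 and 375 CPM, and Siglech, a sialic acid receptor used as a microglial marker, from 524 and 720 CPM to 387, 346 and 349 CPM. P2ry13, a close relative of P2ry12, glutamine synthetase (Glul) and Ctss were the other falls. The purinergic list shared 3 of the calls, P2ry12, P2ry13 and Entpd1, of 19 tested (15.8% lower, beside 0.983% of all genes tested). The size of the homeostatic median leaned on the uninjured libraries: it was −0.59 without uninjured replicate 1 and −0.12 without uninjured replicate 2. Of the homeostatic list, 4 fell without uninjured replicate 1 or day 3 replicate 1, 2 without uninjured replicate 2 and 3 without day 3 replicate 3.

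Other homeostatic genes were not called. Tmem119, a microglial surface protein, was 426 and 679 CPM against 403, 404 and 421 CPM, a shift in which 1 uninjured library stood high and the other close to the injured ones (log2 fold change −0.43, edgeR adjusted p 0.24). Sall1, a transcription factor of microglial identity, was 289 and 457 CPM against 367, 267 and 337 CPM, with overlap. Csf1r (0.00) and Cx3cr1 (0.30) showed no call either. Against 1 day the list looked different: 22 of its 39 members were lower at 3 days than at 1 day and 0 were higher, with Tmem119 and Sall1 among the lower ones (edgeR adjusted p 0.004 and 0.02). Signalling by TGF-beta, which supports this state, had 0 called genes of 31 in edgeR, with 27 negative, a median of −0.33, 6 lower and 0 higher at an unadjusted p under 0.05, and 2 lower in DESeq2. Its receptor gene Tgfbr1 was 904 and 1049 CPM against 711, 771 and 726 CPM (log2 fold change −0.41, edgeR adjusted p 0.15).

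A few transcription factors fell. Of 42 tested that act in microglia, 3 fell (7.14%, beside 0.983% of all genes tested) and 0 rose, with 14 positive. DESeq2 and the fit to the uninjured and 3 day libraries alone each called 1 rise. Without day 3 replicate 1 or 3, 2 fell. Klf4 alone of the 3 was called in each fit run. Klf4, a Kruppel-like factor of myeloid cells, was 364 and 317 CPM and then 135, 170 and 133 CPM (0.43 of the uninjured level, log2 fold change −1.22, SE 0.19, edgeR adjusted p 0.0026). Mef2a, a factor bound at microglial enhancers, went from 1058 and 962 CPM to 533, 632 and 563 CPM, a fall not called without uninjured replicate 1. The third was Fos, the immediate early gene, at 213 and 223 CPM and then 120, 134 and 113 CPM.

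Cells switch on immediate early and stress genes within minutes of a stimulus, and tissue dissociation is known to raise them. Of 38 tested, 8 fell (21.1%, beside 0.983% of all genes tested) and 0 rose at 3 days, with 10 positive and a median of −0.40. The 8 were Klf4, Dnajb1, Hsph1, Fos, Ier5, Klf6, Hsp90aa1 and Fosl2. Without uninjured replicate 1, 1 fell, and 3 fell without uninjured replicate 2, day 3 replicate 1 or day 3 replicate 3. With the replicate number as a block, 3 fell. Their summed level was 25710 and 27182 CPM in uninjured mice, 30582 to 36819 CPM at 1 day and 16964 to 19843 CPM at 3 days. At 1 day 6 of them were called higher than in uninjured mice, a count with no share over all genes beside it here. Against 1 day, 22 were lower at 3 days, beside 5.75% of all genes tested. How long tissue was handled in each group is not given in the sources used here, and its part in these levels was not tested.

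Heat shock genes made up 4 of the 15 largest falls that the naming rule gave. Hsph1, a chaperone of the HSP110 family, was 2621 and 1665 CPM in uninjured mice and 845, 974 and 643 CPM at 3 days (log2 fold change −1.38, SE 0.24, edgeR adjusted p 0.0054). Dnaja1 (ENSMUSG00000028410), an HSP40 co-chaperone, was 1304 and 815 CPM against 402, 417 and 370 CPM (0.37 of the uninjured level, log2 fold change −1.42, SE 0.21, edgeR adjusted p 0.0019). The uninjured libraries differed from each other more than the injured ones did, with uninjured replicate 1 the higher in each case. Dnajb1, another HSP40 member, was 481 and 339 CPM against 162, 220 and 126 CPM, and Hspe1, the mitochondrial chaperonin cofactor, 197 and 162 CPM against 50.5, 110 and 39.9 CPM. Of the 4, Dnaja1 alone was called without uninjured replicate 1.

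Heat shock factors bind inverted repeats of the letters GAA. The 5 called falls of heat shock genes (the 4 above and Hsp90aa1) were searched, on both strands and with overlaps counted, for GAANNTTC or TTCNNGAA, a search chosen after their values were seen. Promoters were matched for 4 of the 5, and those of Hsph1, Hspe1 and Dnaja1 held a match, as did 16.97% of 27025 genes with a promoter in the RefSeq table. A gene can have several start sites in that table, and a match in any one counts; of the 3 Dnaja1 promoters, 2 held none and the other is printed. The 3 are printed, with matches in capitals (runs of capitals join overlapping matches), because they belong to the falls named above; a match is a description of the letters only.
Hsph1 promoter, chr5:149636287-149636586, minus strand: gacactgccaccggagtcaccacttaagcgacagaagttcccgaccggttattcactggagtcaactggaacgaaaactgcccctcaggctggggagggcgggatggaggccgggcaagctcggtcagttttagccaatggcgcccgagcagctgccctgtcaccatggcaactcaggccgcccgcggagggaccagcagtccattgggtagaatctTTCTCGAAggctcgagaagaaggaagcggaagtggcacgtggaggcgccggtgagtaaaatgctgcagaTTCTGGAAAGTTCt
Hspe1 promoter, chr1:55087898-55088197, plus strand: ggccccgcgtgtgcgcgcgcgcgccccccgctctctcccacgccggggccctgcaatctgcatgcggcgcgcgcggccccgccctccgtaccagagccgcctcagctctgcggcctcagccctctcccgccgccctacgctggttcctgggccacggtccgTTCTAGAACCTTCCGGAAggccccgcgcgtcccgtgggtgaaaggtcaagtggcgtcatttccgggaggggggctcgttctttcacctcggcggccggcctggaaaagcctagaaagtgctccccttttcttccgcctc
Dnaja1 promoter, chr4:40722218-40722517, plus strand: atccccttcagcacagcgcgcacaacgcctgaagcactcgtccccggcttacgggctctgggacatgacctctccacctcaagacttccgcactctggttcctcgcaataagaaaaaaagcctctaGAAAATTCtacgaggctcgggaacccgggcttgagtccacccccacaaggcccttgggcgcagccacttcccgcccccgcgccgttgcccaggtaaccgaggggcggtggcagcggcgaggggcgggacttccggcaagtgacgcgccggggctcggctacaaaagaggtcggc

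Only 65.7% of the tested genes had a promoter in that table. The shares set beside called genes are over all 27025 genes with a promoter, tested or not. A share over the tested genes alone is not given here, so these comparisons are void.

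A few genes of antigen presentation were called, too few to be read as a result about their lists. On the MHC class I list of 23, Calr, also counted with the chaperones above, rose (4.35%, beside 2.49% of all genes tested). The falls were 2 heavy chain genes (8.70%, beside 0.983%). H2-K1 went from 747 and 751 CPM to 477, 550 and 434 CPM, and H2-Q6 from 189 and 142 CPM to 69.1, 91.5 and 56.2 CPM. Genes of that family are close copies, so the split of reads between them is uncertain. For MHC class II, 2 of 22 fell (9.09%, beside 0.983% of all genes tested), Ctss and March1. March1, a ligase that removes class II molecules from the surface, was at 65.8 and 68.0 CPM and then 27.6, 33.2 and 33.7 CPM. The class II chain H2-Ab1 was 132 CPM in both uninjured libraries and 129, 103 and 151 CPM at 3 days. None of those 4 falls was called without uninjured replicate 1.

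Large falls also occurred in genes outside the lists, named by a rule that admits only genes without overlap between the groups. Cpe, a carboxypeptidase that matures neuropeptides, was 71.5 and 33.0 CPM against 11.4, 10.6 and 15.4 CPM, and P3h2, a collagen prolyl hydroxylase, 62.8 and 65.0 CPM against 23.01, 24.6 and 14.6 CPM. Col12a1, a collagen of fibroblast-rich tissue, was 17.2 and 44.2 CPM and then 2.68, 10.9 and 1.45 CPM, and Slc40a1, the iron exporter ferroportin, 348 and 227 CPM against 100.4, 160 and 93.1 CPM. All 4 were lower in each injured library, and all 4 lost their call without uninjured replicate 1. Among the largest rises outside the lists, Pask (a nutrient-sensing kinase), Ppil1 (a spliceosomal cyclophilin), Krtcap2 (a subunit of the oligosaccharyl transferase), Fgf13 and Spdl1 (a spindle protein that the cell division list does not hold) rose by 2.57 to 3.37, each under 30 CPM in all 5 libraries.

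Markers of other cells were counted in these libraries. Of the 12 lists of cell types, none had a called rise in edgeR (2 markers of other cells and 6 of microglial identity were higher before adjustment at a p under 0.05, and DESeq2 called 1). Called lower were 3 markers of other cells and 3 of microglial identity: Slc1a3 of astrocytes, F13a1 of monocytes and border macrophages, Csf3r of neutrophils, and P2ry12, Itgam and Siglech. Summed endothelial markers (17 tested, 14 negative) were 2083 and 1782 CPM in uninjured mice and 1390, 1629 and 1459 CPM at 3 days, and 12 mural markers 1683 and 1465 CPM against 1326, 1177 and 1159 CPM. Border macrophage markers (12 tested, 9 negative) were 992 and 946 CPM against 772, 790 and 662 CPM. Astrocyte markers (13 tested, 10 negative) were 282 and 177 CPM against 167, 124 and 145 CPM. Neutrophil markers (11 tested, 7 negative) were 292 and 374 CPM against 223, 217 and 191 CPM. The neutrophil median was −0.32 on the log2 scale, but 0.27 without day 3 replicate 1. Lymphocyte and NK cell markers (3 tested, 3 positive) lay higher, at 13.997 and 20.192 CPM against 28.048, 20.698 and 31.143 CPM. Oligodendrocyte and precursor markers (12 tested, 9 negative) had overlapping groups, with 119 and 142 CPM against 163, 118 and 152 CPM. Choroid plexus markers differed within both groups, with 5726 and 552 CPM in the uninjured and 3734.5, 641 and 2094 CPM in the injured libraries. Cd3e and Slc17a7 had no count in the uninjured libraries, and Cd8a and Olig2 none at 3 days. The part of these cells in the falls above was not tested.

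Cell division genes are given here only as the setting of the rest. Of 385 tested, 147 rose, with a median of 1.87, and Mki67, a marker of cycling cells, went from 35.6 and 31.6 CPM to 900, 1219 and 1556 CPM. Without uninjured replicate 1 or 2, 53 and 59 were called, and 71 without day 3 replicate 3. Birc5, an apoptosis inhibitor that also acts in mitosis, was the largest rise on the apoptosis list of 30, with Bcl2 (1.62) and Cdkn1a, the p21 inhibitor of the cell cycle (0.90), the other 2 calls there.

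Many changes outside cell division set 3 days apart from 1 day as well. Of the 286 rises, 145 were also called higher at 3 days than at 1 day. Of the 171 falls, 143 were also called lower than at 1 day. These genes were picked on the same 3 day libraries, which favours such an overlap, so the overlap is no separate result. For all genes tested, cell division genes included, 912 were higher (5.24%) and 1000 lower (5.75%) in that comparison. At 1 day itself, 19 of the 286 were called higher than in uninjured mice and 7 of the 171 lower. Both times share the uninjured libraries, and the share of all genes called at 1 day is not given here. Gpr84, Tnfaip2, Tnfsf9 and Il1b belonged to the 19, while Mmp12, Lpl, Spp1 and Psat1 lay between −0.47 and 0.44 on the log2 scale at 1 day, with no call. Itga5, a fibronectin receptor subunit, was higher than in uninjured mice at both times but lower at 3 days than at 1 day (log2 change 1.403 and then 0.80, difference −0.60, edgeR adjusted p 0.009).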

How the data were processed

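RNA was measured in CD11b bead-purified LGN microglia of uninjured mice (2 libraries) and mice killed 1 day (3) or 3 days (3) after optic nerve crush. The authors deposited raw read counts per Ensembl gene. The submitters' processing notes name FastQC, STAR, HTSeq and mm9; for versions, annotation and strand the entry is: not given in the sources used here. A single flow cell code stands in all 8 descriptions, and no batch was separable.

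GENCODE M21 gave symbols for 25925 of 26062 IDs; IDs without one held 0.127% of all counts. Exonic lengths and overlaps came from that annotation, whose build differs from mm9. Of 284 named genes, 61 share exonic bases with another counted gene, 8 of them on the same strand; without a stated strand setting, reads of genes on opposite strands (Rac1 and Daglb, Cd72 and Tesk1, Timp3 and Syn3, P3h2 and Gm4524) cannot be told apart. No 2 libraries of a group agreed within sampling noise (chi-square per degree of freedom at least 25.1).

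Counts were tested in edgeR 4.0.16 (R 4.3.3): filterByExpr, TMM scaling, and 1 robust quasi-likelihood model over the 8 libraries (spread pooled, since uninjured mice gave only 2), with Benjamini-Hochberg adjustment over 17390 genes at 0.05. CPM are TMM-scaled; an SE is the log2 fold change over the square root of F. The biological coefficient of variation was 51.1%. On simulated counts for 3 days against uninjured (17390 genes, 5 simulations), 10.4% of 2-fold and 47% of 4-fold changes were recovered, and 5.9% of calls were false.

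The members, lists and tests were chosen with earlier results of these data known. Named genes are the 15 largest rises and falls among called genes outside cell division (10 CPM or more on average in the higher group, no overlap between libraries, no predicted genes, clones or small RNAs), up to 4 members of each of 51 lists by p with all called members of biology lists, and 30 fixed genes. Lists share members. Alternatives were DESeq2 1.42.0, limma-voom (limma 3.58.1), other scaling and filters, the 2 groups alone, the replicate number as a block, no mitochondrially encoded genes, thinning to equal depth, and each library left out. Some genes are not reported here.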

Additional observations from a re-analysis of the deposited data

Results flagged for a closer look

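In each of 5 genes outside the cell division list, the change from uninjured was called at both times in opposite directions. Both times share the uninjured libraries. Opposite changes make the difference between 3 days and 1 day larger than either. Its call in edgeR for all 5 is therefore no separate result. Rai14, an actin-binding protein, was lower at 1 day and higher at 3 days, with 32.9 and 24.9 CPM in uninjured mice, 11.5 to 14.4 CPM at 1 day and 62.9 to 83.5 CPM at 3 days. Its 3 days minus 1 day log2 difference was 2.43 (edgeR adjusted p 4.5e-05). The other 4 were higher at 1 day and lower at 3 days. Itgam, the CD11b gene, differed by −2.10 between the times (edgeR adjusted p 2.6e-06). Slc24a1, a sodium, potassium and calcium exchanger, was 51.4 and 46.1 CPM in uninjured mice, 92.5 to 113 CPM at 1 day and 24.8 to 27.0 CPM at 3 days, a difference of −2.02 between the times. Jmjd1c, a member of a histone demethylase family, was 1919 and 1851 CPM, then 2621 to 3029 CPM, then 1205 to 1353 CPM (difference −1.12). The predicted gene Gm43430 was 138 and 157 CPM, then 260.2 to 260.95 CPM, then 89.96 to 95.4 CPM (difference −1.50). In all 5 the 3 groups of libraries did not overlap, which such a choice of genes favours. The 3 day fall of Itgam lost its call with single libraries left out, as given above.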

How the results depend on the processing

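No called change of a named gene reversed its direction in any fit. With each library left out in turn, rises numbered 97 to 603 and falls 11 to 379, and outside the cell division list 44 to 424 and 11 to 378; a group left with 1 library was assumed to vary like the others. DESeq2 gave 873 rises and 502 falls (667 and 501 outside the list), and the uninjured and 3 day libraries fitted alone gave 926 and 419 (693 and 419). Without a filter on low counts, 299 genes fell, all outside the list. Scaling by library totals gave 185 rises outside the list. The cause of these shifts was not tested. Rises made up 59.5% of the calls without a filter, and 56.5% under scaling by totals.

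Whether the replicate numbers pair the libraries could not be settled. Between uninjured and 3 day libraries of the same number, deviations from the group means correlated at 0.06 and 0.091. With only 2 uninjured libraries, their deviations mirror each other, so these values cannot decide the question. With the number as a block, 341 genes rose and 83 fell (222 and 83 outside the list). Among the 433 rises and 171 falls, 324 and 78 were called under the block.

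In simulations with these library sizes and numbers, 10.4% of 2-fold and 47% of 4-fold changes were recovered. Thinned to equal depth, the data gave 443 rises and 175 falls.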

Other observations

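Predicted genes and unnamed clones made up 22.2% of the 17005 genes tested outside the cell division list, 8 of the 286 rises (2.80%) and 17 of the 171 falls (9.94%). Malat1, a nuclear long non-coding RNA and the most abundant of the called falls, had a mean of 7492 CPM in uninjured and 4102 CPM in 3 day libraries (log2 fold change −0.87, edgeR adjusted p 0.0056). It was looked at after its values were seen.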
